A study of Mus musculus with 83 samples.

Results

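The miR-200 family consists of 5 miRNA hairpins, and all 5 were found by gene name among the 32101 features of the deposited small RNA table, 1573 of which are miRNA hairpins. In the mouse the family is encoded in 2 genomic clusters. *Mir200b*, *Mir200a* and *Mir429* lie on chromosome 4, and *Mir200c* and *Mir141* on chromosome 6. All 5 passed the filter on low values in every fit, and all were matched to their gene and mature sequences. Small RNA of 20 to 24 nt was sequenced in 83 libraries to follow what happens to small RNAs when DNA methylation is lost. Of these, 36 form a time course of embryonic stem cells (ESCs), with control and *Dnmt1* KO cells on days 1, 3, 6, 9, 11 and 25 and 3 replicates per group. *Dnmt1* encodes the maintenance DNA methyltransferase. Another 30 libraries repeat the names of days 1 to 11 with an R1 suffix, 8 hold RNA pulled down with AGO2 (4 control and 4 *Dnmt1* KO), 2 are labelled "none" (1 per genotype), and 7 come from primordial germ cells (PGCs). Among the R1-suffixed libraries, those of day 11 without the KO are titled WT rather than control.

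The titles call the ESCs E14. In the methods, the cells carried loxP sites in both copies of *Dnmt1* on a C57BL/6 background, the deletion was made by Cre induced with tamoxifen, and cells grew in serum and LIF with or without feeder cells. Which of the time course libraries came from cells on feeders, and whether control cells received tamoxifen, is not given in the sources used here. The labels do not say whether replicates were separate cultures, so p-values measure only the spread between these libraries. The PGC libraries are 1 per embryonic day (E13.5 and E14.5) and sex without the suffix, and 3 with it, from embryos carrying an Oct4-GFP transgene, sorted for GFP. The labels give the AGO2 and "none" libraries no day and do not say what "none" stands for. The study describes a negative control of beads and extract without serum. Time course libraries held 870481 to 6239008 reads up to day 11 and 521066 to 815523 reads on day 25. The 12 hairpins of the miR-290 and miR-302 clusters that mark ESCs summed to 110780 to 139222 RPM (reads scaled to the library total) in control and *Dnmt1* KO libraries of days 1 to 11, to 176156 to 209785 RPM in control libraries of day 25 and 136659 to 141633 RPM in their *Dnmt1* KO counterparts. None of the 12 was at 0 in all libraries of any of these groups. The genotypes did not overlap in this sum on any day. It was higher in *Dnmt1* KO on days 1, 3 and 6 (day 6, 130508 to 139222 against 111105 to 114800 RPM). It was lower on days 9, 11 and 25 (day 11, 110780 to 118591 against 126139 to 128664 RPM). The part of this in the results was not tested.

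Members of the miR-200 family are best known as markers and keepers of the epithelial state. They repress the transcription factors ZEB1 and ZEB2, which repress *Cdh1* (E-cadherin) and, in turn, the miR-200 genes themselves, so that miR-200 and ZEB factors hold each other in check. ESCs express the family, and its level falls when epithelial cells turn mesenchymal.

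The table counts reads per hairpin and does not separate its arms. The 3p arms, for which the family is best known, are printed here. These 5 sequences are shown because the seed, bases 2 to 8 of a mature miRNA and the part that pairs with targets, splits the family in another way than the chromosomes do. They were taken from RefSeq (build GRCm38.p6), 5′ to 3′, with the seed in capitals.
miR-200b-3p: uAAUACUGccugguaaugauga
miR-429-3p: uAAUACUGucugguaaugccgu
miR-200c-3p: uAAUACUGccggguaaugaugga
miR-200a-3p: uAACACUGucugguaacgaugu
miR-141-3p: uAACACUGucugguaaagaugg

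miR-200b, miR-429 and miR-200c share the seed AAUACUG, and no other of the 1738 mature mouse sequences in the reference table has it. miR-200a and miR-141 share AACACUG, again with no further mature sequence. The seeds differ by 1 base, U4C, counted from the 5′ end with the miR-200b base first. Each cluster therefore holds both seeds. Over the whole mature sequence, miR-200a-3p and miR-141-3p, which come from different chromosomes, differ at 2 bases (C17A and U22G, the miR-200a base first), and miR-200b-3p and miR-200c-3p at 2 bases within the first 22 (U11G and A22G, the miR-200b base first). The longest run shared by any pair of these hairpins was 17 bases, between *Mir200a* and *Mir141*, and none shared a run of 20 bases with any of the 1004 other hairpins compared. These are fewer than the 1573 miRNA features of the deposited table. Among the hairpins compared, reads of 20 nt or more without mismatch therefore belong to 1 hairpin. Other hairpins and the rest of the genome are not covered by this comparison. How reads with mismatches were assigned is not given in the sources used here.

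Positions are those of the deposited table (build NCBIM37), all on the minus strand. *Mir200b* (ENSMUSG00000065549.1) spans chromosome 4, 155429790 to 155429859. *Mir200a* (ENSMUSG00000065400.1) spans 155429005 to 155429094, and *Mir429* (ENSMUSG00000065427.1) 155428014 to 155428096. The RefSeq hairpins of all 5 genes were identical to NCBIM37 at the listed positions. The 3 hairpins fall within 1846 bases, inside the noncoding transcript *Gm13648*, where *Mir200b* and *Mir200a* are intronic and *Mir429* exonic, and inside introns of *Ttll10*, the gene of a tubulin-modifying enzyme. On chromosome 6, *Mir200c* (ENSMUSG00000065462.1) spans 124668340 to 124668408 and *Mir141* (ENSMUSG00000065474.1) spans 124667932 to 124668003, 477 bases in all, both in an intron of the transcript *Gm15884*. Within 10 kb the table also lists *Phb2*, *Emg1*, the small nucleolar RNA *snoU89* and *Ptpn6*.

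A read within a hairpin also counts for the transcript around it. Over the time course, *Gm13648* held 259962 reads, of which 152 (0.0585%) lay outside the 3 hairpins, and *Gm15884* held 51383 reads, of which 258 (0.502%) lay outside the other pair. The values of these host features are therefore those of the hairpins. Reads of 20 to 24 nt outside the hairpins averaged at most 2.22 RPM per group for *Gm13648* and 5.64 RPM for *Gm15884*.

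The promoter of *Gm13648*, which lies before the chromosome 4 cluster, is shown because it holds the E-box CACCTG, the kind of site that ZEB factors bind. It runs from 250 bases before to 50 bases after the start of the RefSeq transcript, at chr4:156059753-156060052 of GRCm38.p6, minus strand, with each match in capitals.
Gm13648 promoter: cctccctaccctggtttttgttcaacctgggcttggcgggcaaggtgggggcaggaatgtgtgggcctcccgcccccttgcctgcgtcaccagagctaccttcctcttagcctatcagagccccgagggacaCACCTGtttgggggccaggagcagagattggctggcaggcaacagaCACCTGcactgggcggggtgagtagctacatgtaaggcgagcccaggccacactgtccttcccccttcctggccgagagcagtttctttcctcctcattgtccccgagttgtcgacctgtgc

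CACCTG occurred 2 times, from 118 and 72 bases before the start, and CAGGTG, the same motif on the other strand, was not found in this window. Of 32851 mouse promoters of the same length, 20.2% held at least 1 match on either strand and 2.88% at least 2. A match is a description of these letters and was not tied to binding here.

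Levels between hairpins were compared as RPKM, the deposited unit, which divides RPM by the length of the feature. *Mir200b* was highest and *Mir200c* lowest of the 5 in 36 of 36 time course libraries. *Mir141* lay above *Mir200a* in 36 libraries and *Mir429* above *Mir200a* in 35, while *Mir429* lay above *Mir141* in 19, so that neither of this pair was the higher throughout. The order of these 3 depends on the division by length. In RPM, *Mir200a* averaged 246 and *Mir141* 239 in *Dnmt1* KO cells of day 9, and *Mir429* 484 and *Mir141* 478 in control cells of day 3. In control ESCs of day 1 the levels were 24095 ± 2339 RPKM for *Mir200b*, 8116 ± 1578 for *Mir141*, 6189 ± 562 for *Mir429*, 3284 ± 393 for *Mir200a* and 1458 ± 237 for *Mir200c* (mean ± SD, n = 3). *Mir141* lay above *Mir429* in each of these 3 libraries, and below it in every control library of days 9 and 11. *Mir200c* and *Mir141*, which lie in 1 intron, thus differed several-fold. Together the 5 hairpins took 0.238 to 0.756% of all miRNA reads in the time course.

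**Figure D1:**
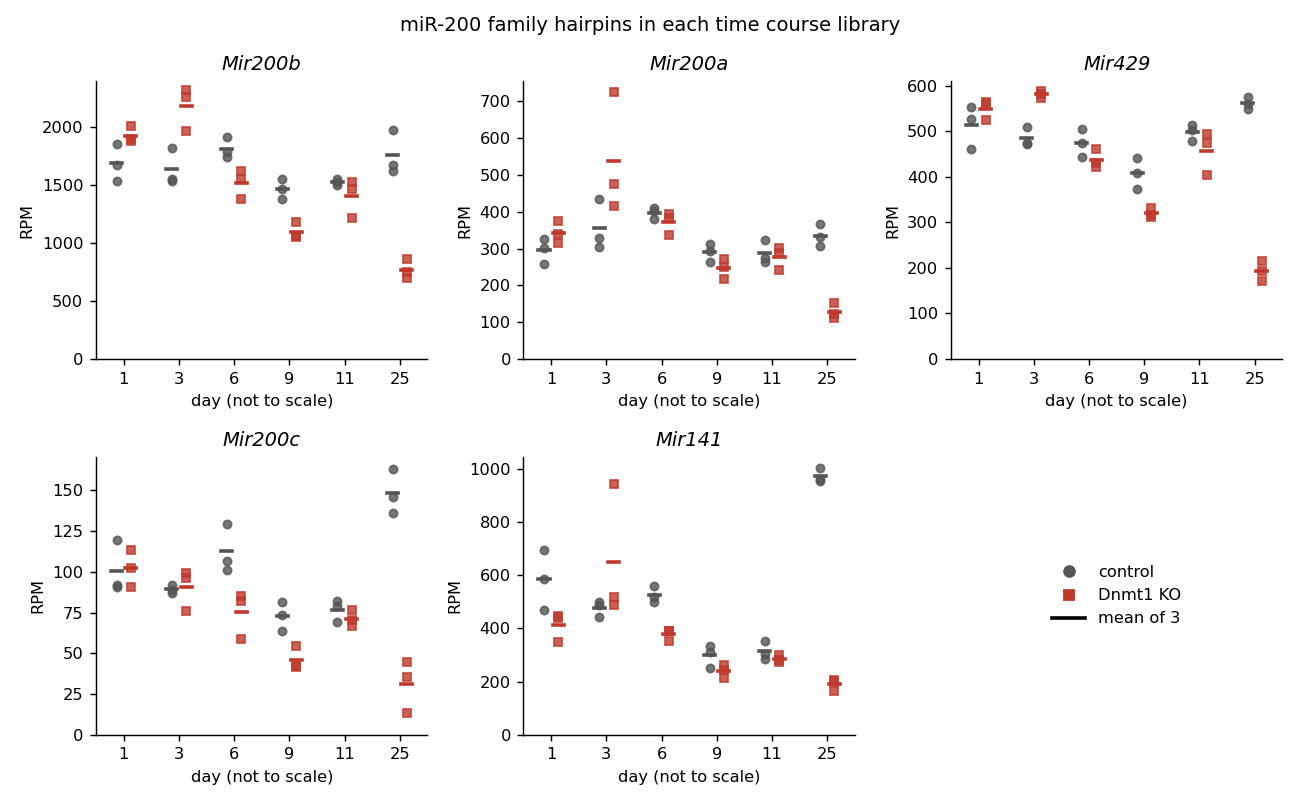
RPM of each hairpin (vertical axes, from 0) in every time course library by day (horizontal axes, not to scale), with control libraries as grey circles, *Dnmt1* KO libraries as red squares and means of 3 libraries as lines. On day 25 all 5 hairpins lie lower in every *Dnmt1* KO library than in every control library, while days 1 to 11 show smaller differences in both directions.

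The main question was whether the family responds to the loss of *Dnmt1*, and when. Early days showed small shifts in both directions, and on day 25 all 5 hairpins were lower in *Dnmt1* KO cells, those of chromosome 6 by most. Values below are RPM, and fold changes are differences of log2(RPM + 1) from a fit over all tested features (limma, with p adjusted after Benjamini and Hochberg over 2582 features and called under 0.05). In bulk libraries, fewer cells of a type and less RNA per cell cannot be told apart.

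On day 25, *Mir200b* reached 1676, 1620 and 1975 RPM in the control libraries and 865, 752 and 699 RPM in the *Dnmt1* KO libraries. *Mir200a* held 307, 330 and 365 RPM against 113, 123 and 152 RPM, and *Mir429* 575, 560 and 549 RPM against 215, 172 and 193 RPM. For each of the 3 hairpins, the highest KO library lay below the lowest control library. *Mir200c* held 136, 163 and 146 RPM in control against 35.4, 44.8 and 13.3 RPM in *Dnmt1* KO, the KO values from 22, 35 and 7 reads. *Mir141* held 954, 962 and 1004 RPM in control against 164, 207 and 199 RPM in *Dnmt1* KO, again without overlap.

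All 5 members were called lower on day 25, where 35.0% of all features were called and 17.0% were called lower. *Mir200b* fell by 1.08 on the log2 scale (standard error, SE, 0.0981, adjusted p = 6.86e-12), *Mir200a* fell by 1.26 (SE 0.151, adjusted p = 9.26e-09) and *Mir429* fell by 1.43 (SE 0.0929, adjusted p = 2.49e-16). *Mir200c* fell by 2.26 (SE 0.224, adjusted p = 6.76e-11) and *Mir141* fell by 2.25 (SE 0.166, adjusted p = 1.3e-14). The 95% intervals of the chromosome 6 pair, from −2.72 to −1.81 and from −2.58 to −1.91, did not reach those of the chromosome 4 hairpins, of which the lowest began at −1.62 (*Mir429*). Hairpins of 1 seed did not share 1 size of change, since *Mir200b* and *Mir200c*, both with AAUACUG, stood at −1.08 and −2.26, and *Mir200a* and *Mir141*, both with AACACUG, at −1.26 and −2.25. The members' median of −1.43 stood beside −0.20 over all 287 miRNA features tested, 37.6% of which were called lower, and 0.00 over all features. Of all features, 19.1% had every *Dnmt1* KO library of day 25 below every control library. In each of 13 alternative settings or libraries left out, every member stayed called, with values from −1.19 to −0.98 for *Mir200b* and from −2.66 to −1.82 for *Mir200c*.

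**Figure D2:**
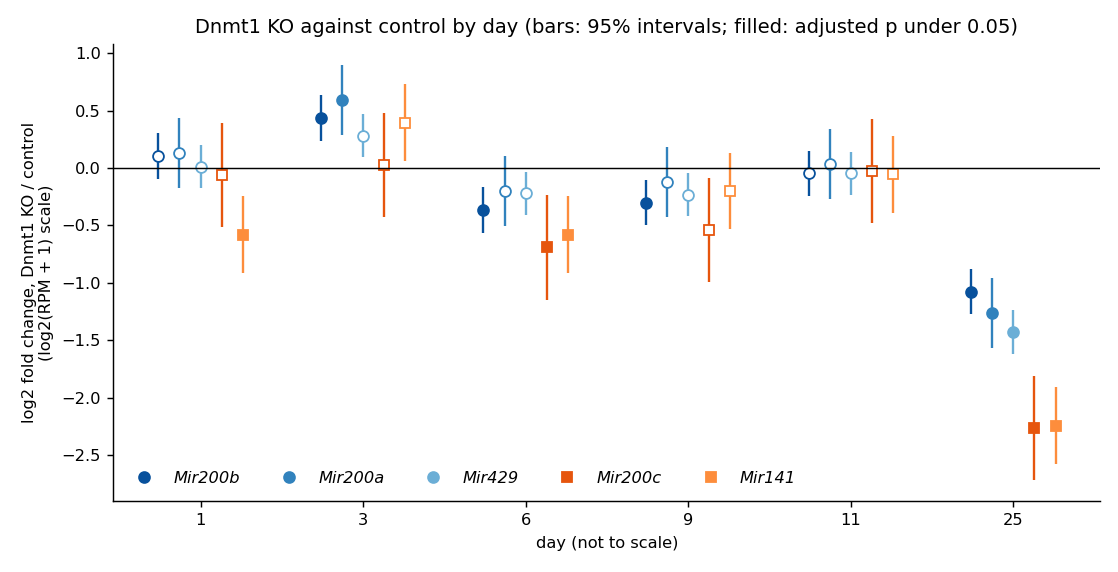
Log2 fold change of *Dnmt1* KO against control (vertical axis, log2(RPM + 1) scale) for each hairpin by day (horizontal axis, not to scale), with 95% intervals as bars, filled symbols for adjusted p under 0.05, circles for the chromosome 4 cluster and squares for the chromosome 6 cluster. All 5 are filled and below 0 on day 25, at −1.08, −1.26 and −1.43 for the circles and −2.26 and −2.25 for the squares, and none is filled on day 11.

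The days before did not lead up to this in steps. On day 1, 3.8% of features were called (0.93% lower), and of the members only *Mir141* was. Its control libraries held 469, 588 and 696 RPM and its *Dnmt1* KO libraries 351, 439 and 447 RPM, without overlap, and it fell by 0.58 (SE 0.166, adjusted p = 0.0334). This call did not hold without control replicate 2 (−0.56, adjusted p = 0.0993), control replicate 3 (−0.43, adjusted p = 0.324), *Dnmt1* KO replicate 1 (−0.45, adjusted p = 0.317) or *Dnmt1* KO replicate 2 (−0.63, adjusted p = 0.0545). The other 4 hairpins differed by −0.06 to 0.13 with adjusted p from 0.724 to 0.979, although all *Mir200b* values were higher in *Dnmt1* KO (1876 to 2010 RPM) than in control libraries (1531 to 1858 RPM). Groups did not overlap for 15.6% of features in this direction and for 4.65% in the other, that of *Mir141*.

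On day 3 all 5 estimates were above 0, and the test called *Mir200b* and *Mir200a*, with 6.24% of features called and 4.49% called higher. *Mir200b* held 1818, 1539 and 1552 RPM in control against 2261, 2316 and 1964 RPM in *Dnmt1* KO libraries, without overlap, and rose by 0.43 (SE 0.0981, adjusted p = 0.00351). *Mir200a* held 433, 304 and 328 RPM in control against 724, 475 and 415 RPM in *Dnmt1* KO libraries, where the lowest KO library lay below the highest control library, and rose by 0.59 (SE 0.151, adjusted p = 0.0102). *Dnmt1* KO replicate 1 stood highest in *Mir200a* and also in *Mir141*, at 944 RPM against 518 and 488 RPM in the other libraries of its group. Without it *Mir200a* differed by 0.33 (adjusted p = 0.291), without control replicate 2 by 0.50 (adjusted p = 0.092) and without control replicate 3 by 0.56 (adjusted p = 0.0506). *Mir141* differed by 0.39 (adjusted p = 0.17). Without *Dnmt1* KO replicate 1 it differed by 0.0647 (adjusted p = 0.928), and without *Dnmt1* KO replicate 3 by 0.57 (adjusted p = 0.0453). *Mir429* differed by 0.28 (adjusted p = 0.0615) although its KO libraries, at 573 to 589 RPM, all lay above its control libraries, at 471 to 509 RPM, as was so for 12.9% of features. The median of all miRNA features that day was 0.24, and 23.0% of them were called higher, against a median of 0.39 for the family.

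On day 6 all 5 estimates were below 0, and *Mir200b*, *Mir200c* and *Mir141* were called, with 23.0% of features called and 9.33% called lower. *Mir141* held 520, 500 and 560 RPM in control against 391.6, 352 and 391.1 RPM in *Dnmt1* KO libraries and fell by 0.58 (SE 0.166, adjusted p = 0.00756). *Mir200c* held 107, 130 and 101 RPM against 85.3, 58.5 and 81.8 RPM and fell by 0.69 (SE 0.224, adjusted p = 0.0197), and *Mir200b* held 1917, 1739 and 1784 RPM against 1549, 1384 and 1622 RPM and fell by 0.36 (SE 0.0981, adjusted p = 0.00479). None of the 3 overlapped between genotypes, and 12.8% of features were lower without overlap. All 3 calls rested on *Dnmt1* KO replicate 2, without which *Mir141* differed by −0.49 (adjusted p = 0.0633), *Mir200c* by −0.48 (adjusted p = 0.19) and *Mir200b* by −0.25 (adjusted p = 0.0851), and that of *Mir200c* also on control replicate 2 (−0.65 without it, adjusted p = 0.0721). *Mir200a* differed by −0.20 (adjusted p = 0.367) and *Mir429* by −0.22 (adjusted p = 0.0838), the latter called without *Dnmt1* KO replicate 3 (−0.35, adjusted p = 0.0134) or control replicate 2 (−0.33, adjusted p = 0.0175). The family median was −0.36, beside 0.10 over miRNA features and 0.14 over all features.

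The turn between days 3 and 6 was tested as a change of the KO effect, a comparison chosen after the values had been seen. Of all features 7.75% were called and 2.94% were called lower, and so were 4 of the 5 members. The KO effect of *Mir200b* dropped by 0.80 (SE 0.139, adjusted p = 5.95e-05), that of *Mir200a* by 0.80 (SE 0.214, adjusted p = 0.0123), that of *Mir429* by 0.50 (SE 0.131, adjusted p = 0.00985) and that of *Mir141* by 0.98 (SE 0.234, adjusted p = 0.0044). *Mir200c* gave −0.72 (adjusted p = 0.18). For *Mir200a* the call was lost without *Dnmt1* KO replicate 2 of day 6 (−0.68, adjusted p = 0.065) or control replicate 2 of day 3 (−0.70, adjusted p = 0.057).

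On day 9 the estimates were again all below 0, and *Mir200b* alone was called, with 18.4% of features called and 6.12% called lower. It held 1380, 1465 and 1552 RPM in control against 1053, 1058 and 1184 RPM in *Dnmt1* KO libraries and fell by 0.30 (SE 0.0981, adjusted p = 0.0267). The call was lost without control replicate 2 (−0.28, adjusted p = 0.0933), control replicate 3 (−0.26, adjusted p = 0.128) or *Dnmt1* KO replicate 1 (−0.26, adjusted p = 0.126). *Mir429* (−0.23, adjusted p = 0.0823) and *Mir200c* (−0.54, adjusted p = 0.0933) were not called, though like *Mir200b* their groups did not overlap, which held for 22.8% of features in this direction. Both were called without *Dnmt1* KO replicate 3 (−0.33, adjusted p = 0.0286, and −0.74, adjusted p = 0.0434), and *Mir429* also without control replicate 1 (−0.28, adjusted p = 0.0417). On day 11 no member was called by limma and none had an unadjusted p under 0.05, while 8.64% of features were called. Estimates that day lay between −0.06 and 0.03, with 95% intervals no wider than from −0.48 to 0.43 (*Mir200c*), and the groups overlapped for all 5.

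**Figure D3:**
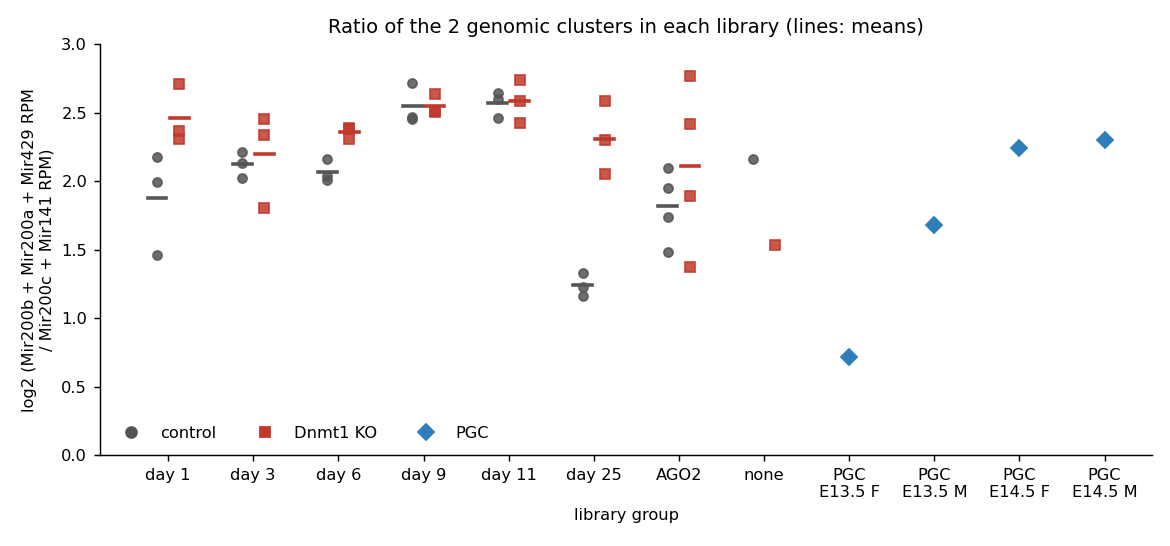
Log2 ratio of the summed RPM of *Mir200b*, *Mir200a* and *Mir429* to that of *Mir200c* and *Mir141* (vertical axis) in each library of the time course, AGO2, "none" and PGC groups (horizontal axis), with means as lines where a group has more than 1 library. The 3 control libraries of day 25 (1.16 to 1.33) lie below all *Dnmt1* KO libraries of that day (2.05 to 2.58) and below the other control libraries, of which the lowest is at 1.46 on day 1.

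The balance of the clusters was read as the log2 ratio of their summed RPM, which does not depend on the scaling between libraries. It is a score over the members and is given without a test. In control ESCs it was 2.17, 2.00 and 1.46 on day 1, between 2.01 and 2.71 on days 3 to 11, and 1.23, 1.16 and 1.33 on day 25. In *Dnmt1* KO cells it stayed between 1.81 and 2.74 at all times, with 2.58, 2.05 and 2.30 on day 25. The genotypes thus stood apart by 1.07 on day 25, beside a spread within groups of 0.197 (pooled SD), and by 0.29 on day 6 (SD 0.0635), both without overlap. On day 1 they differed by 0.58 (SD 0.302), and by 0.38 without control replicate 3, which stood lowest at 1.46. These groups did not overlap as a ratio of sums, but they did as a mean of logs, where the lowest *Dnmt1* KO library (1.668) lay below the highest control library (1.673). On days 3, 9 and 11 they overlapped, with differences of 0.08, 0.00 and 0.01.

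Both clusters differed between genotypes on day 25, and in control cells only that of chromosome 6 had a member called against day 1. Here and in the other comparisons of days within a genotype, day and library preparation cannot be told apart. In control cells the chromosome 4 cluster summed to 2496 RPM on day 1 and 2653 RPM on day 25, and the chromosome 6 cluster to 685 and 1122 RPM. In *Dnmt1* KO cells the sums went from 2819 to 1094 RPM and from 515 to 221 RPM. Between day 1 and day 25 of the control, *Mir141* rose by 0.62 (SE 0.166, adjusted p = 0.00184) in a comparison where 50.9% of features were called, and no other member was called. *Mir200c* gave 0.43 (adjusted p = 0.106), and the chromosome 4 hairpins gave −0.08 to 0.05. By day 11 of the control, *Mir141* had instead fallen by 0.89 (SE 0.166, adjusted p = 3.35e-05), from 469 to 696 RPM on day 1 to 287 to 353 RPM, with 34.9% of features called and no other member. Among control libraries it ranged from 252 RPM on day 9 to 1004 RPM on day 25.

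In *Dnmt1* KO cells, all 5 members were lower on day 25 than on day 1, with 47.1% of features called and 25.8% called lower. The falls were 1.26 for *Mir200b*, 1.35 for *Mir200a*, 1.44 for *Mir429*, 1.77 for *Mir200c* and 1.05 for *Mir141*, with SE from 0.0929 to 0.224 and adjusted p of at most 1.16e-06. Within the KO cells, the falls of the chromosome 6 pair thus lay on either side of those of the chromosome 4 hairpins. By day 11 all 5 members held less RPM in every *Dnmt1* KO library than in every one of day 1, as was so for 35.2% of features. *Mir200b* alone was called, at −0.30 (SE 0.0981, adjusted p = 0.0165), with 28.2% of features called, and the others gave −0.15 (*Mir200a*), −0.11 (*Mir429*), −0.36 (*Mir200c*) and −0.37 (*Mir141*) with adjusted p from 0.0978 to 0.521. With library totals for scaling, *Mir429* (−0.27, adjusted p = 0.0257) and *Mir141* (−0.53, adjusted p = 0.0086) were called as well. The call of *Mir200b* was lost without *Dnmt1* KO replicate 1 of day 11 (−0.23, adjusted p = 0.124), while *Mir141* was called without *Dnmt1* KO replicate 1 of day 1 (−0.50, adjusted p = 0.0374).

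The change of the KO effect from day 1 to day 25 was called for all 5 members, with 19.9% of features called and 10.2% called lower. It was −1.18 for *Mir200b* (adjusted p = 8.09e-09), −1.39 for *Mir200a* (adjusted p = 2.96e-06), −1.44 for *Mir429* (adjusted p = 9.8e-12), −2.21 for *Mir200c* (adjusted p = 7.41e-07) and −1.66 for *Mir141* (adjusted p = 4.88e-07). From day 1 to day 11 none was called by limma, while 9.02% of features were, and 1 member, *Mir141*, had an unadjusted p under 0.05 (0.53, with an adjusted p = 0.205 from limma).

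Marker levels of other cells moved with day as well. The 7 hairpins of the fibroblast and mesenchymal list found in the table, of 8 listed, did not keep to 1 direction between genotypes. Their sum overlapped on day 1 and was higher in all *Dnmt1* KO libraries on day 3 (25604 to 27911 RPM against 17202 to 17431 RPM in control), day 6 (17201 to 19127 against 9927 to 11753 RPM), day 9 (32568 to 37951 against 18165 to 24009 RPM) and day 11 (18937 to 22622 against 16277 to 17688 RPM). On day 25 it was lower in all *Dnmt1* KO libraries, at 1888 to 2040 RPM against 2622 to 2861 RPM. It was thus higher in *Dnmt1* KO cells on day 3, when *Mir200b* and *Mir200a* were called higher, and on days 6 and 9, when members were called lower. Between AGO2 genotypes it was again higher in *Dnmt1* KO, at 4936 to 5890 against 2037 to 4140 RPM. Depending on the group, 1 or 2 of the hairpins were at 0 in all libraries of the time course. *Mir126*, an endothelial hairpin, ranged from 862 to 1566 RPM (control) and from 798 to 2408 RPM (KO) on days 1 to 11, and from 532 to 574 and from 485 to 525 RPM on day 25. The erythroid and gonadal hairpins held at most 6.43 RPM in any time course library. Of 5 muscle hairpins 3 could be summed, to at most 0.412 RPM. The part of these levels in the results was not tested.

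Other epithelial miRNAs and the genes around the ZEB loop were read from lists chosen with earlier results of these data known. Of 6 epithelial miRNAs, all tested, 4 were called lower and 1 higher on day 25. On that day 35.0% of all features were called, and 37.6% of miRNA features were called lower. *Mir203* fell by 0.96 (adjusted p = 8e-06), *Mir96* fell by 0.69 (adjusted p = 0.000303), *Mir183* fell by 0.63 (adjusted p = 4.82e-05) and *Mir182* fell by 0.26 (adjusted p = 0.0298). *Mir205*, which also targets ZEB factors, rose by 1.32 (adjusted p = 2.14e-13), and *Mir375* gave 0.15 (adjusted p = 0.546). On earlier days the calls of these 6 were lower, apart from *Mir375* on day 11. Of all features, 3.8% were called on day 1, 6.24% on day 3, 23.0% on day 6, 18.4% on day 9 and 8.64% on day 11. On day 1 *Mir183* fell by 0.72 (adjusted p = 0.000128), and on day 3 none of the 6 was called by limma, with *Mir203* (0.48, adjusted p = 0.0668) and *Mir96* (0.30, adjusted p = 0.261) at an unadjusted p under 0.05. On day 6 *Mir182*, *Mir96* and *Mir183* fell by 0.52, 0.48 and 0.48. On day 9 *Mir205* fell by 0.42 (adjusted p = 0.00327), against its rise on day 25, and *Mir182* and *Mir183* fell by 0.42 and 0.43. On day 11, when no miR-200 hairpin was called, *Mir375* rose by 1.15 (adjusted p = 5.4e-06) and *Mir182* and *Mir183* fell by 0.41 and 0.40. Between AGO2 genotypes, where 36.4% of features were called, *Mir375* rose by 1.49, and *Mir182*, *Mir96* and *Mir183* fell by 1.16, 0.89 and 1.52. Of 14 genes of the miR-200 and ZEB axis, all listed in the table, 3 passed the filter, *Cdh1*, *Epcam* (an epithelial surface protein) and *Fn1* (fibronectin). On day 25 *Fn1* fragments rose by 0.69 (adjusted p = 0.000685), and *Cdh1* (−0.01) and *Epcam* (0.58, adjusted p = 0.0624) were not called. *Epcam* fragments fell by 0.70 on day 9 (adjusted p = 0.0394). Small RNA reads over these genes are fragments and do not measure their mRNA.

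Over time, members of the same lists were called in both genotypes. Up to 5 called genes per comparison, those of lowest p, are given. From day 1 to day 11 of the control, 5 of 6 epithelial miRNAs were called lower and 1 higher. In *Dnmt1* KO cells 3 were called lower and 1 higher. Of the 3 genes tested, 1 was lower and 1 higher in each genotype. By day 25, 4 epithelial miRNAs and 2 genes were called lower in control, and 5 and 1 in *Dnmt1* KO cells. None was higher by then. Of all features, 34.9% (control) and 28.2% (KO) were called by day 11, and 50.9% and 47.1% by day 25. From day 1 to day 11 of the control, *Mir375*, *Mir205* and *Mir203* fell by 2.65, 0.49 and 0.69, and *Mir182* and *Fn1* rose by 0.41 and 0.92. In *Dnmt1* KO cells *Mir375*, *Mir96* and *Cdh1* fell by 1.65, 0.62 and 0.62, and *Mir182* and *Fn1* rose by 0.30 and 0.72. From day 1 to day 25 of the control, *Mir205*, *Mir183*, *Mir182*, *Fn1* and *Epcam* fell by 2.30, 1.48, 0.57, 1.54 and 1.45, and in *Dnmt1* KO cells *Mir183*, *Mir205*, *Mir96*, *Mir182* and *Fn1* fell by 1.38, 1.05, 0.82, 0.53 and 0.75. The KO effect changed between days 1 and 25 by 1.25 for *Mir205*, −0.91 for *Mir203*, 0.80 for *Fn1* and 1.05 for *Epcam*, between days 1 and 11 by 1.00 for *Mir375* and between days 3 and 6 by −0.78 for *Mir96*. Of all features, 19.9, 9.02 and 7.75% were called for these changes, in this order. In AGO2 against total RNA of day 9, *Mir203*, *Mir96*, *Mir183* and *Mir182* were higher by 1.09, 1.13, 1.04 and 0.63 and *Mir205* was lower (−0.995) in control cells, and *Mir203* and *Mir375* were higher by 0.87 and 1.06 in *Dnmt1* KO cells. There 65.3% (control) and 52.8% (KO) of miRNA features were called. Near the clusters, *Phb2* was not called on any day, and *snoU89*, which lies inside it, was called on day 25 (−0.32, adjusted p = 0.0375).

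Across the 12 group means of the time course, the 5 members followed each other. As a description, Pearson's r on the log2 scale was 0.88 to 0.96 between members of 1 cluster and 0.67 to 0.91 between members of different clusters. These means share libraries, scaling and the day 25 fall, so they are not independent points. Among 282 other miRNA features, the closest to the chromosome 4 cluster were *Mir186* (r = 0.91), *Mir19a* (0.87), *Mir330* (0.87), *Mir342* (0.85) and *Mir338* (0.85). The closest to the chromosome 6 cluster were *Mir19a* (0.88), *Mir374* (0.87), *Mir93* (0.87), *Mir17* (0.83) and *Mir135b* (0.81). On day 25 *Mir186* averaged 2463 RPM in control and 1011 RPM in KO cells, and *Mir93* averaged 6048 and 1847 RPM.

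AGO2 is the Argonaute protein that carries miRNAs to their targets, and its libraries ask which members are loaded. miRNA features took 97.9 to 99.0% of their reads, against 52.9 to 60.7% in the time course of days 1 to 11. Depth differed by genotype, with 1152390 to 11520126 reads in *Dnmt1* KO and 11497724 to 25422978 reads in control. The libraries did not vary evenly, since counts of replicates 1 and 2 were closer to each other than to replicates 3 and 4 within each genotype.

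**Figure D4:**
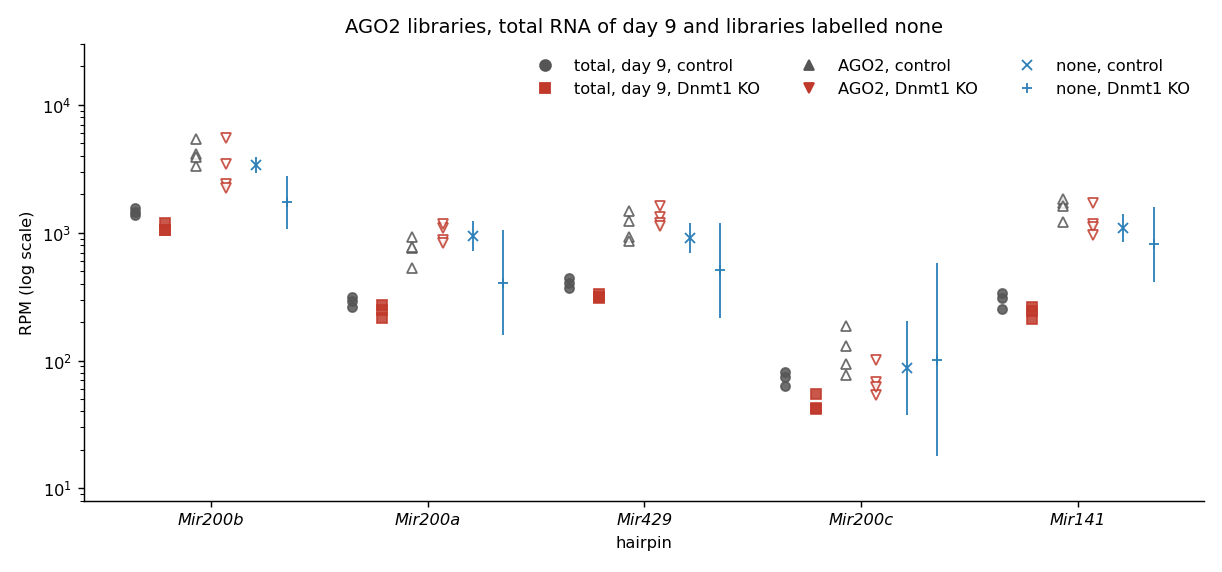
RPM on a log scale (vertical axis) of each hairpin (horizontal axis) in total RNA of day 9, in AGO2 libraries and in the "none" libraries, with 1 symbol per library and 95% counting intervals for the "none" libraries. *Mir200b*, *Mir200a*, *Mir429* and *Mir141* lie higher in every AGO2 library than in every total library of day 9, *Mir200c* does not, and for the same 4 hairpins the "none" libraries also lie above the total libraries.

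Against total RNA of day 9, scaled over miRNA features alone, 4 members were enriched relative to the typical miRNA in both genotypes. In control cells 65.3% of 288 miRNA features were called and 29.2% were called higher. *Mir141* was higher by 2.38 (SE 0.201, adjusted p = 3.01e-07), *Mir200b* by 1.47 (SE 0.272, adjusted p = 0.000327), *Mir429* by 1.41 (SE 0.194, adjusted p = 2.66e-05) and *Mir200a* by 1.31 (SE 0.182, adjusted p = 2.8e-05). *Mir200c* gave 0.64 (adjusted p = 0.077), was called without AGO2 control replicate 4 (0.87, adjusted p = 0.0149) and against totals of days 1 to 11 (0.52, adjusted p = 0.00161), and gave 0.40 without AGO2 control replicate 2 (adjusted p = 0.213). In *Dnmt1* KO cells 52.8% were called and 24.7% were called higher. *Mir141* was higher by 1.72 (SE 0.201, adjusted p = 8.84e-06), *Mir429* by 1.41 (adjusted p = 4.2e-05), *Mir200a* by 1.39 (adjusted p = 3.02e-05) and *Mir200b* by 0.92 (SE 0.272, adjusted p = 0.0116), and *Mir200c* gave −0.01 (adjusted p = 0.983). Against totals of days 1 to 11, *Mir200c* was called lower in *Dnmt1* KO cells (−0.38, limma adjusted p = 0.0175).

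In RPM, *Mir141* held 1710, 1830, 1627 and 1221 in AGO2 control and 1716, 1164, 1114 and 955 in AGO2 *Dnmt1* KO libraries, beside 213 to 335 in total RNA of day 9. *Mir200c* held 131, 188, 94.6 and 77.6 in AGO2 control and 68.6, 53.4, 101 and 62.6 in AGO2 *Dnmt1* KO libraries, beside 41.7 to 81.2 in total RNA. The pair from 1 intron thus differed in its place in AGO2, with *Mir141* above all total libraries in both genotypes. *Mir200c* lay above all of them in 3 of 4 AGO2 control libraries and in 1 of 4 AGO2 *Dnmt1* KO libraries. These counts are in RPM, which a larger share of miRNA raises, and were not repeated as shares of miRNA reads. miRNA features took 97.9 to 99.0% of reads in AGO2 libraries and 57.2 to 59.5% in total RNA of day 9. With 193, 54, 52, 5 and 62 reads for *Mir200b*, *Mir200a*, *Mir429*, *Mir200c* and *Mir141* of 57155 reads, the control "none" library stood at 3377, 945, 910, 87.5 and 1085 RPM, and the *Dnmt1* KO one, with 9830 reads, at 1729, 407, 509, 102 and 814 RPM from 17, 4, 5, 1 and 8 reads. The 95% Wilson intervals of the *Dnmt1* KO one were 1080 to 2768 RPM for *Mir200b*, 158 to 1046 RPM for *Mir200a*, 217 to 1190 RPM for *Mir429* and 412 to 1605 RPM for *Mir141*. For *Mir200b*, *Mir200a*, *Mir429* and *Mir141* both "none" libraries lay above every total library of day 9, of which the highest held 1552, 313, 442 and 335 RPM, though the intervals of the *Dnmt1* KO one reach below these except for *Mir141*. In RPM, the *Dnmt1* KO one lay below all AGO2 *Dnmt1* KO libraries in these 4 hairpins. However, miRNA features took 45.9% of its reads, against 97.9 to 98.1% in AGO2 *Dnmt1* KO. As a share of miRNA reads the family held 0.776% in it, within the 0.585 to 0.971% of the AGO2 *Dnmt1* KO libraries. The control "none" library lay within the RPM range of the AGO2 control libraries for *Mir200b*, *Mir429* and *Mir200c*, above it for *Mir200a* (526 to 935 RPM) and below it for *Mir141*. Its reads were 84.1% miRNA, against 98.9 to 99.0% in AGO2 control. Pull-down and library preparation cannot be told apart from AGO2 binding in these values.

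Between genotypes, 2 members were called in AGO2 libraries, both of chromosome 6, where 36.4% of 456 features were called and 11.6% were called lower. *Mir200c* fell by 0.99 (SE 0.302, adjusted p = 0.0322) and *Mir141* fell by 0.64 (SE 0.213, adjusted p = 0.0427), although the RPM of the groups overlapped for both. With the replicate number as a block both stayed called (adjusted p = 0.0448 and 0.0252). With library totals for scaling both were lost (*Mir200c* −0.73, adjusted p = 0.116, and *Mir141* −0.39, adjusted p = 0.214). Without the filter *Mir200b* (−1.55, adjusted p = 0.00165) and *Mir141* (−1.57, adjusted p = 0.021) were called and *Mir200c* was not (−1.89, adjusted p = 0.108). Without AGO2 control replicate 1, 2 or 3 both calls were lost. *Mir200c* then gave −0.93, −0.81 and −1.03 (adjusted p = 0.0802, 0.0767 and 0.0588) and *Mir141* −0.61, −0.63 and −0.58 (adjusted p = 0.103, 0.0829 and 0.116). That of *Mir200c* was also lost without AGO2 *Dnmt1* KO replicate 1 (−1.03, adjusted p = 0.0538) or 2 (−0.92, adjusted p = 0.0597). With the means of replicates 1 and 2 and of replicates 3 and 4 as samples, neither was called (adjusted p = 0.258 and 0.244). *Mir200b* held 4157, 5384, 3348 and 3898 RPM in control against 2424, 2233, 5490 and 3468 RPM in *Dnmt1* KO libraries and gave −0.63 (adjusted p = 0.114), which was called without *Dnmt1* KO replicate 3 (−0.98, adjusted p = 0.0113). *Mir200a* gave 0.17 and *Mir429* −0.01, neither called. The KO effect in AGO2 was not tested against that in total RNA.

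Per length, *Mir200b* was highest and *Mir200c* lowest in 8 of 8 AGO2 libraries, as in the time course, and *Mir141* lay above *Mir429* in 6 of 8.

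PGCs lose DNA methylation in the embryo and were sequenced without replicates, so their values are set beside the range of the 15 control ESC libraries of days 1 to 11, with no test. Every member was at least 2-fold below the lowest of these ESC libraries in all 4 PGC libraries without the suffix. Of 3117 features at 10 RPM or more in at least 3 of these ESC and PGC libraries, 8.37, 8.89, 9.56 and 9.37% lay that low in the female and male cells of E13.5 and in those of E14.5, in this order. Of the 277 miRNA features among them, 32.5, 25.6, 34.7 and 31.4% did.

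**Figure D5:**
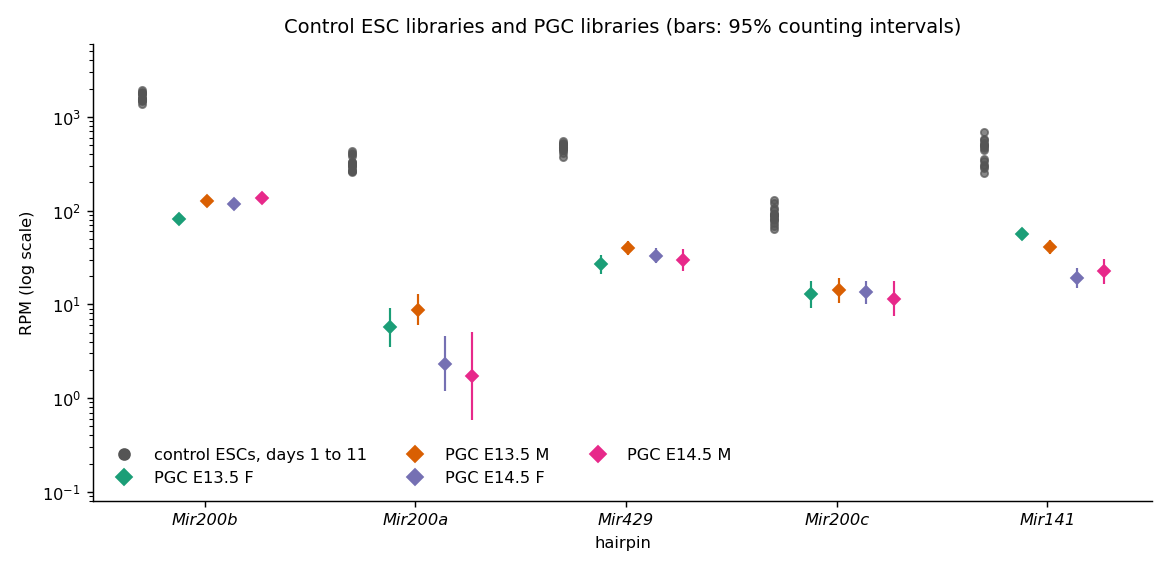
RPM on a log scale (vertical axis) of each hairpin (horizontal axis) in the 15 control ESC libraries of days 1 to 11 (grey circles) and in the 4 PGC libraries without the suffix (diamonds), with 95% counting intervals. All PGC values lie below all ESC values, *Mir200a* is lowest of the 5 in every PGC library, and *Mir141* is lower on E14.5 than on E13.5.

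*Mir200b* held 81.7 RPM in E13.5 female, 128 in E13.5 male, 119 in E14.5 female and 136 in E14.5 male PGCs, against 1380 to 1917 RPM in control ESCs. *Mir429* held 26.7, 40.0, 32.9 and 29.98 RPM, and *Mir200c* 12.8, 14.1, 13.4 and 11.5 RPM. These hairpins stood within a narrow range over the 4 libraries, *Mir200c* at 4.53 to 5.54-fold and *Mir429* at 9.33 to 14.0-fold below the lowest ESC library. *Mir141* held 56.5 and 41.0 RPM on E13.5 (159 and 122 reads) and 19.2 and 22.5 RPM on E14.5 (66 and 39 reads). *Mir200a* had the fewest reads of the family, with 16 and 26 on E13.5 and 8 and 3 on E14.5. Its 95% Wilson intervals, which cover counting error only, were 5.96 to 12.8 RPM in E13.5 male, 1.18 to 4.59 in E14.5 female and 0.588 to 5.09 in E14.5 male cells. Its level was 29.5-fold below the lowest ESC library in E13.5 male (interval 20.1 to 43.2) and 111-fold in E14.5 female cells (interval 56.0 to 218).

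Per length, *Mir200a* was the lowest of the 5 in 4 of 4 PGC libraries, with 63.2, 97.0, 25.9 and 19.2 RPKM, below *Mir200c* with 185, 204, 194 and 167 RPKM. In the time course and AGO2 libraries *Mir200c* was the lowest throughout. *Mir200b* was the highest in all 4. The log2 cluster ratio was 0.72 in female and 1.68 in male PGCs of E13.5, and 2.24 and 2.30 in those of E14.5. The low E13.5 female value lay outside the range of all ESC libraries. The family took 0.0416 to 0.0509% of miRNA reads in these libraries. As shares of miRNA reads, all members were still at least 2-fold below the ESC range in all 4, where 6.38, 8.79, 6.54 and 6.9% of features were. *Mir202*, which marks gonadal somatic cells, stood at 25.23 to 154 RPM in them, lowest in E13.5 female cells, and the ESC hairpins summed to 12189 to 24377 RPM. The fibroblast and mesenchymal hairpins summed to 16689 RPM in E13.5 female cells, where the cluster ratio was lowest. They summed to 6752 RPM in E13.5 male, 4320 in E14.5 female and 4496 in E14.5 male cells. The part of other cells in these values was not tested.

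With the suffix, the E14.5 male library of 1328606 reads held 117 RPM of *Mir200b*, 12.04 of *Mir200a*, 49.7 of *Mir429*, 12.04 of *Mir200c* and 27.1 of *Mir141*. The E13.5 male library of 60317 reads held 0 reads of all 5 hairpins, which allows up to 49.7 RPM each. miRNA features made up 0.83% of its reads, against 36.7 to 55.6% in the PGC libraries without the suffix, and 8 of the 12 ESC hairpins were at 0 in it, so the level of the family was not measurable there. The E13.5 female one held 10 reads of *Mir200b*, 2 of *Mir200a* and 6 of *Mir200c*.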

How the data were processed

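Small RNA libraries were made from mouse ESCs, AGO2 immunoprecipitates and PGCs. According to the study's methods and the submitters' processing notes, the authors trimmed the reads (Trim Galore 0.3.5), mapped reads of 20 to 24 nt with Bowtie2 2.2.9 on NCBIM37 and quantified features in SeqMonk. The values deposited by the authors are RPKM, that is RPM divided by the span of the feature in kilobases. RPKM was multiplied by the span to give RPM. Low values were whole multiples of 1 step per library, within 5% of the step, and this step gave the library total and the reads. Whether strand was used is not given in the sources used here.

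Groups followed the titles, and the R1-suffixed libraries of day 11 titled WT were taken as controls. The genotype tags of the AGO2, "none" and some R1-suffixed libraries contradict titles and were not used. log2(RPM + 1) values were scaled with TMM (trimmed mean of M values, own code, 30% of log ratios and 5% of abundances trimmed) and fitted with limma 3.58.1 (limma-trend) in R 4.3.3, after a filter of at least 10 RPM in at least 3 libraries. The 36 time course libraries shared 1 fit, with 3 libraries per group; the AGO2 libraries had their own, and AGO2 against day 9 was fitted on miRNA features. Tests were two-sided, with Benjamini-Hochberg adjustment over all features tested and a threshold of 0.05. The fit was tested on simulated data. Fold changes shrink towards 0 for rare features.

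R1-suffixed libraries were kept apart, as 95.4 to 96.9% of their nonzero read numbers were even. Chi-square per degree of freedom over miRNA features was 1.46 to 6.37 between namesakes and 7.86 to 154 between replicates of days 1 to 11 without the suffix. Between R1-suffixed replicates, whose libraries are shallower, it was 3.59 to 75.3. With the day 25 and AGO2 replicates, which have no namesakes, the range without the suffix was 2.28 to 2888. Namesakes were not counted as further replicates. Replicate numbers were checked for pairing by the correlation of residuals. In the time course r lay between −0.08 and 0.07 and numbers were not used. In AGO2 every pair had r from 0.19 to 0.39, so the blocked value is given beside the result.

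The members, lists, tests and alternatives were chosen with earlier results of these data known, and the change from day 3 to day 6 was added after the values were seen. All 5 members were named in every comparison, together with neighbours within 10 kb, up to 5 called members of the lists per comparison (6 on day 25), and the 5 miRNAs closest to each cluster. Alternatives were library totals, median-ratio factors, pseudocounts of 0.1 and 10 RPM, no filter, single days, R1-suffixed libraries, replicate blocks and leaving out each library.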

Additional observations from a re-analysis of the deposited data

Results flagged for a closer look

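The effect of *Dnmt1* deletion on the family differed between days by a test of that difference (limma, interaction of day and genotype). From day 1 to day 25 it changed by −1.18 for *Mir200b*, −1.39 for *Mir200a*, −1.44 for *Mir429*, −2.21 for *Mir200c* and −1.66 for *Mir141*. From day 3 to day 6, a comparison chosen after the values were seen, it changed by −0.80 for *Mir200b*, −0.80 for *Mir200a*, −0.50 for *Mir429* and −0.98 for *Mir141*. In the AGO2 groups, none of 12 sets of 4 values held a library far from the others by Dixon's test, which chance passes in about 1 of 20 groups.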

How the results depend on the processing

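On day 25 all 5 members stayed called lower under each of 13 alternatives. Counts of called members on earlier days moved. The counts below stand without the share of all features called under the same setting, so a shift over all features cannot be told apart. With library totals for scaling, 0 members were called on day 1, 1 on day 6, 3 on day 9, 2 in control day 25 against day 1, 3 in *Dnmt1* KO day 11 against day 1 and 0 between AGO2 genotypes. Median-ratio factors gave 2 on day 9, a pseudocount of 0.1 RPM gave 0 on day 1 and one of 10 RPM gave 2 on day 9. Without the filter, 0 were called on days 1, 3 and 9, 1 on day 6, 0 in control day 25 against day 1, 0 in *Dnmt1* KO day 11 against day 1 and 2 for the change from day 3 to day 6. Libraries of the day alone gave 1 on day 3 and 3 on day 9. R1-suffixed libraries gave 0 on day 1, 1 on day 6, 0 in *Dnmt1* KO day 11 against day 1 and 2 for the change from day 3 to day 6. Means of the AGO2 subsets gave 0. Leaving out 1 library gave 0 to 1 on day 1, 1 to 3 on day 3, 0 to 4 on day 6, 0 to 3 on day 9, 0 to 2 in *Dnmt1* KO day 11 against day 1 and 0 to 3 between AGO2 genotypes. The cluster ratio as a mean of logs differed by 0.38 on day 6 and 0.15 on day 9, and with R1-suffixed libraries by 0.38 on day 6. The causes were not tested.

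Estimates near 0 changed sign. With library totals, *Mir200c* gave 0.0299 on day 1 and −0.14 for the change from day 1 to day 11, *Mir200a* −0.0494 on day 11, *Mir200b* 0.0580 and *Mir429* 0.13 in control day 25 against day 1, *Mir429* 0.25 between AGO2 genotypes, and *Mir200c* 0.59 for AGO2 against total in *Dnmt1* KO. With median-ratio factors, day 11 gave 0.0172 for *Mir200b*, 0.0169 for *Mir429*, 0.0380 for *Mir200c* and 0.00753 for *Mir141*, and control day 25 against day 1 gave 0.000607 for *Mir429*. Without the filter, *Mir200c* gave 0.0709 on day 1, −0.0267 on day 3, 0.0218 on day 11 and −0.0491 for the change to day 11. *Mir200b* gave 0.000843 and *Mir429* 0.000514 on day 11. Control day 11 against day 1 gave 0.0195 for *Mir200b*, 0.11 for *Mir200a* and 0.12 for *Mir429*, control day 25 against day 1 gave −0.19 for *Mir200a*, and AGO2 genotypes gave −0.75 for *Mir200a*. With R1-suffixed libraries, *Mir200c* gave −0.22 on day 3, day 11 gave 0.0510 for *Mir200b*, 0.0262 for *Mir429*, 0.0928 for *Mir200c* and 0.0625 for *Mir141*, and *Mir200a* gave 0.00761 for the change to day 11.

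Leaving out 1 library moved *Mir429* from −0.0525 to 0.0700 and *Mir200c* from −0.16 to 0.0815 on day 1, and *Mir200c* from −0.0343 to 0.12 on day 3. Day 11 ran from −0.0725 to 0.0270 for *Mir200b*, −0.0263 to 0.12 for *Mir200a*, −0.10 to 0.0139 for *Mir429*, −0.11 to 0.0524 for *Mir200c* and −0.12 to 0.0417 for *Mir141*. Control day 11 against day 1 ran from −0.19 to 0.00749 for *Mir200a* and −0.17 to 0.00496 for *Mir429*. Control day 25 against day 1 ran from −0.15 to 0.000741 for *Mir200b*, −0.0480 to 0.13 for *Mir200a* and −0.0732 to 0.0576 for *Mir429*. The change to day 11 ran from −0.18 to 0.0525 for *Mir200a*, −0.12 to 0.0689 for *Mir429* and −0.0682 to 0.13 for *Mir200c*. AGO2 genotypes ran from −0.20 to 0.0689 for *Mir429*, and AGO2 against total in *Dnmt1* KO from −0.18 to 0.36 for *Mir200c*.

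For AGO2 against total, a replicate block needed AGO2 replicate 4 left out. *Mir200c* then gave 0.27 in *Dnmt1* KO and 0.85 in control (adjusted p = 0.0239), close to the 0.27 and 0.87 (adjusted p = 0.0149) of leaving out that replicate of the genotype with no block. Against totals of days 1 to 11 it was called in both by limma, lower in *Dnmt1* KO (−0.38, adjusted p = 0.0175) and higher in control (0.52, adjusted p = 0.00161). The block changed no count of called members on any day. Time course numbers did not pair the samples. Depth limits *Mir200c* most, with 7 reads in 1 *Dnmt1* KO library of day 25, and *Mir200a* in PGCs.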
